A study of Mus musculus with 45 samples.

Results

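Serum embryoid bodies (EBs) were compared with cells in neural differentiation at days 2.5 and 3 of culture, using the 4 EB and the 4 Neural libraries of those days out of 45 libraries in the series. The libraries were chosen by condition and day alone, and each EB library was paired with the Neural library of the same starting medium and day. All were strand-specific, ribosomal RNA-depleted RNA-seq libraries of differentiating embryonic stem cells (ESCs) of 129/Ola background and wild type genotype, from the male line E14tg2a. Before differentiation the ESCs were kept either in 2iL, a medium in which MEK and GSK3 inhibitors and LIF hold cells in a uniform naive state, or in SL, which is serum with LIF. EBs grew as aggregates in suspension in serum without LIF. Neural cells grew attached to gelatin in N2B27, a serum-free medium. A further condition, FA (labelled EpiSC), used the same serum-free medium on an attached culture with Fgf2 and ActivinA added. Each combination of medium, condition and day is 1 library. The time courses are described in the source as independent differentiations, without saying whether the arms or the days within a course were separate cultures. In the paired test, p-values measure how the EB and Neural difference varied over the 4 pairs. The pairs differ in medium, day or both, so this spread holds those effects as well as variation that may be technical. Aggregation and serum came together in the EB arm, and attachment and the N2B27 medium with its supplements in the Neural arm. The effects of these cannot be told apart.

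When naive pluripotency is released, mouse ESCs pass through a formative state resembling the early post-implantation epiblast, marked by Fgf5, Otx2 and Dnmt3b, before they take up a lineage. Without serum or signals that block it, the default route in attached culture is neural, marked first by Sox1. Retinoids, made from vitamin A, activate Hox and other genes of the posterior neural plate. Cells control their sterol synthesis through Srebf2, which is switched on when sterols are scarce, and serum is a source of sterols and fatty acids.

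Library totals ran from 15664959 to 33951812 reads, the 2 EB libraries from 2iL being the deepest at 31055159 and 33951812. Levels are given as CPM, the count of a gene scaled to a common library size after adjustment by TMM factors, and a gene was called when its adjusted p in the paired edgeR quasi-likelihood test was below 0.05. The first principal component held 54.2% of the variance and put all 4 EB libraries on one side and all 4 Neural libraries on the other. The 7SL RNA gene Rn7s1 was at 9297, 10729, 11611 and 16741 CPM in EBs and 36884, 38595, 37965 and 20389 CPM in Neural cells, and its near-identical copy Rn7s2 had almost the same counts, so reads shared by copies appear under each copy. In the 2iL Neural library of day 3, the predicted gene Gm10800 reached 1217 CPM against 0.0559 to 165 CPM in the other 7 libraries. In bulk RNA, fewer cells of a type and less RNA per cell cannot be told apart. CPM values below are given in the order 2iL day 2.5, 2iL day 3, SL day 2.5 and SL day 3.

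Of 14276 genes tested, 4736 were called (33.2%), 2329 of them higher in EBs (16.3%) and 2407 lower (16.9%). The counts for gene lists below are to be read against these shares. With library totals in place of TMM factors the split was 3038 higher and 1718 lower, and the median of all genes moved from 0.0051 to 0.12 on the log2 scale. Without the 2iL day 3 pair 2934 genes were called, and without the SL day 2.5 pair 3118. Among the called genes, 777 were at least 2-fold higher and 1057 at least 2-fold lower in EBs. Differences of at least 8-fold in genes with a mean of at least 5 CPM were fewer on the EB side, 18 genes, than on the Neural side, 64 genes.

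Of 15 formative and primed epiblast genes, 7 were higher in EBs, 1 was lower and 7 did not pass the test. This is a share called of 53.3%, beside 33.2% over all genes tested. Fgf5, the classic epiblast growth factor, was at 71.9, 78.3, 69.5 and 68.7 CPM in EBs and at 8.79, 2.55, 7.55 and 5.3 CPM in Neural cells. No EB library came near a Neural one, and the log2 fold change of EB over Neural was 3.65 ± 0.29 (SE, adjusted p = 4.22e-04), or 12.5-fold. Otx2, a homeobox factor of the epiblast and anterior neural plate (chr14:48657677-48673819, minus strand, GRCm38), was at 107, 139.6, 124 and 140.0 CPM in EBs and 12, 3.99, 14.8 and 11.8 CPM in Neural cells. Its log2 fold change was 3.66 ± 0.33 (SE, adjusted p = 6.44e-04), and the groups again did not overlap. Dnmt3b, a de novo DNA methyltransferase, was at 2485, 2934, 3022 and 2729.6 CPM against 851, 430.4, 903 and 643 CPM, a log2 fold change of 2.03 ± 0.20 (SE, adjusted p = 8.85e-04). The list had a median log2 fold change of 0.35 against 0.0051 over all genes tested. The others that were higher were Grhl2 at 2.78, a factor of epithelial enhancers, Foxd3 at 2.32, Pou3f1 at 1.13 and Zic2 at 0.67 on the log2 scale. Dnmt3l, the cofactor of the methyltransferases, was the exception at -0.71.

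General pluripotency genes were higher in EBs for 5 of 11 and lower for 1, with a median of 0.39. Pou5f1, which encodes the core factor Oct4, was at 417, 488, 508 and 456 CPM in EBs and 255, 69.6, 232 and 125 CPM in Neural cells. The 4 EB values were close together, the Neural values spread widely with the lowest at day 3 from 2iL, and the log2 fold change was 1.62 ± 0.33 (SE, adjusted p = 0.0104). Utf1 and Zscan10 were also higher, by 1.81 and 1.2 on the log2 scale, as were L1td1 and Dppa4, while Lin28a, a regulator of let-7, was lower, at -0.71. L1td1 and Dppa4 kept their direction but lost their call in several settings, among them the fit without the 2iL day 3 pair. Of the naive genes, 4 of 13 were higher and 1 lower, a share called of 38.5% that is near the 33.2% over all genes tested. Nr0b1 was at 18, 12.1, 11.6 and 5.57 CPM in EBs and 1.79, 0.249, 1.12 and 0.723 CPM in Neural cells, with a log2 fold change of 3.65 ± 0.37 (SE, adjusted p = 9.20e-04). Esrrb, Nanog and Nr5a2 were higher by 1.2, 0.72 and 1.53. Klf4, Klf5 and Zfp42, which encodes Rex1, did not pass the test.

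**Figure D1:**
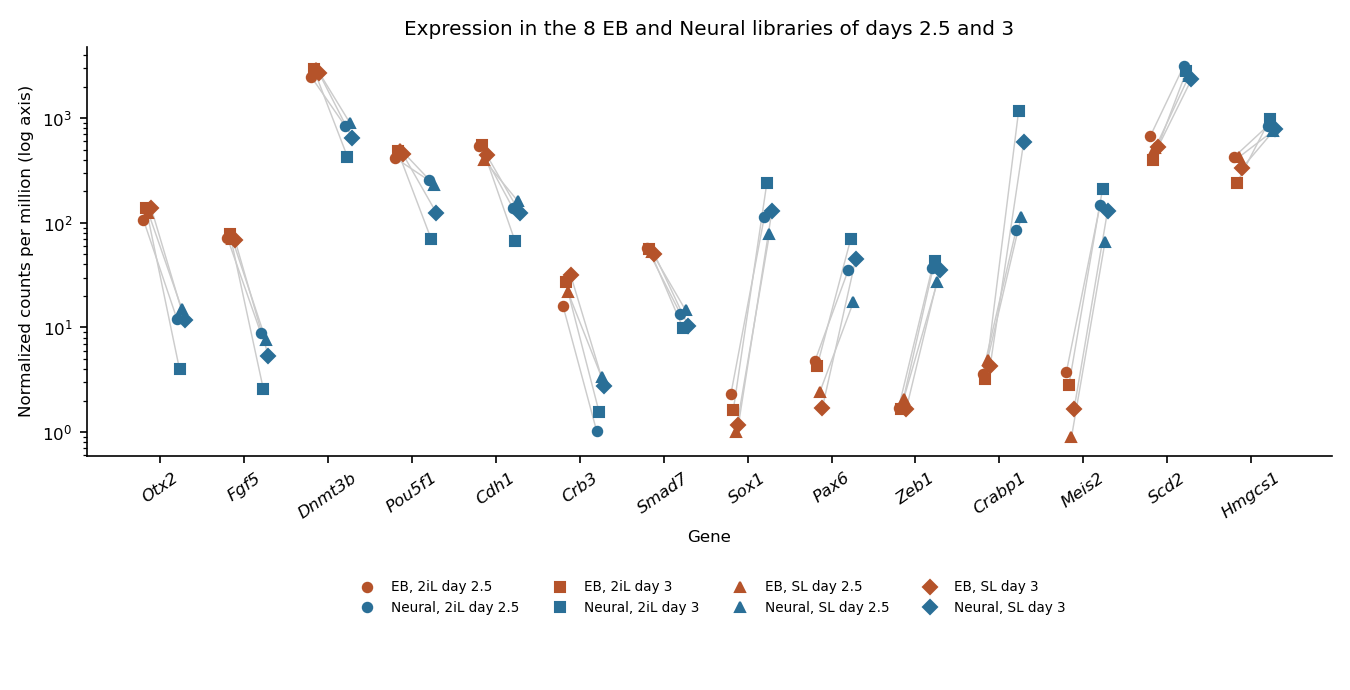
Normalized counts (CPM) on a log axis for 14 genes in the 4 EB libraries (orange) and 4 Neural libraries (blue), each pair of one medium and day joined by a grey line and marked by its own symbol. For Otx2 all EB libraries sit above 100 CPM and all Neural libraries below 15 CPM, whereas for Sox1 all EB libraries sit below 3 CPM and all Neural libraries above 75 CPM.

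Of 20 neural progenitor genes, 17 were tested, 12 were lower in EBs and 1 was higher. Sox1, the first factor of the neural plate (chr8:12395295-12400126, plus strand, GRCm38), was at 2.29, 1.63, 1.01 and 1.16 CPM in EBs and at 115, 242, 77.4 and 130.1 CPM in Neural cells. The lowest Neural library lay far above the highest EB library, and the log2 fold change was -6.47 ± 0.27 (SE, adjusted p = 6.19e-05), or 88.7-fold lower in EBs. Olig3, a bHLH factor of the dorsal neural tube, was at 0.0916, 0.0282, 0 and 0.0485 CPM in EBs, which is 3, 1, 0 and 1 reads, and at 74.8, 43.1, 19.97 and 21.8 CPM in Neural cells. It was called lower, and no fold is given because every EB library was at or under the limit of 3 reads. Sox21, which opposes progenitor maintenance, was at 0.458, 0.591, 0.336 and 0.436 CPM against 9.06, 39.7, 9.26 and 28.2 CPM, and the higher Neural values were those of day 3. Pax6, the eye and forebrain factor, was at 4.73, 4.31, 2.41 and 1.7 CPM against 35.4, 70.5, 17.4 and 45.6 CPM, a log2 fold change of -3.62 ± 0.33 (SE, adjusted p = 7.11e-04). The gene that was higher was Zic5, at 0.87, and the median over the tested genes, Olig3 among them, was -1.35. Cdh2, the neural cadherin, Zic1, Zfp521, Sox3 and Sox11 were lower, at -2.7, -3.51, -1.95, -0.91 and -0.70. Olig3 and Zic1 passed the filter on low counts only through Neural libraries, which fixed their direction. Sox2, shared by pluripotent and neural cells, was at 142, 148, 133 and 109 CPM in EBs and 109, 148, 100.5 and 105 CPM in Neural cells and did not pass the test.

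Of 16 forebrain and midbrain genes, 5 could be tested, 4 of them were lower in EBs and Hesx1 did not pass the test. Gbx2, a factor of the hindbrain side of the midbrain boundary, was at 2.72, 2.25, 3.36 and 1.45 CPM in EBs and 176, 109, 132 and 75.9 CPM in Neural cells, with a log2 fold change of -5.66 ± 0.14 (SE, adjusted p = 1.92e-05). Irx3, Lhx2 and En2 were lower, at -3.28, -2.71 and -1.86, and Lhx2 had fewer than 10 reads in every EB library and passed the filter on low counts only through Neural libraries. The 11 untested genes, Six3 of the forebrain among them, were under 2 CPM in every library. Of 7 neuron markers, 2 were higher and 2 lower. Stmn2, which encodes a tubulin-binding stathmin, and Tubb3, the neuronal beta-tubulin, were lower, at -2.26 and -0.89, and Neurod1 and Elavl3 were higher by 1.83 and 1.15.

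Retinoid genes carried several of the widest differences. Of 15 members, 13 were tested, 9 were lower in EBs and 0 higher, and the median over the tested genes was -3.89. Hoxb1 and Rarb among them passed the filter only through Neural libraries, which fixed their direction. Crabp1, which binds retinoic acid in the cytoplasm, was at 3.6, 3.21, 4.92 and 4.26 CPM in EBs and 85.4, 1177, 114 and 589 CPM in Neural cells. In Neural cells the day 3 values were well above those of day 2.5 from both media, and the log2 fold change was -6.17 ± 0.79 (SE, adjusted p = 0.00198). Stra6, the receptor that takes up vitamin A, was at 2.01, 2.59, 1.12 and 1.99 CPM against 43.3, 60.5, 9.79 and 17.2 CPM, a change of -3.89 ± 0.30 (SE, adjusted p = 3.81e-04). Rarb, a retinoic acid receptor that is itself a retinoid target, was at 0.244, 0.141, 0.392 and 0.533 CPM against 3.91, 15.9, 2.82 and 10.7 CPM, a change of -4.53 ± 0.57 (SE, adjusted p = 0.00176). Meis1 and Meis2, partners of Hox proteins, were lower, at -5.5 and -5.93, Crabp2 at -2.0 and Dhrs3, a retinaldehyde reductase, at -1.13. Stra8, a retinoid-induced gene of germ cells that was outside the list, was at 0.153, 0.225, 0.28 and 0.0969 CPM in EBs and 33.3, 17.2, 34.2 and 24.8 CPM in Neural cells. It was not rising there: on the scale of all 45 libraries, Neural cells from 2iL had 79.9 CPM at day 1 and 16.9 CPM at day 3. From SL they had 87.6 and 24.4 CPM. Undifferentiated ESCs at day 0 had 19.5 to 24.1 CPM in 2iL and 11.8 CPM in SL. Cyp26a1, which degrades retinoic acid, behaved differently, at 4.98, 6.84, 40.6 and 65.3 CPM in EBs and 3.64, 8.53, 15.6 and 18.7 CPM in Neural cells. It did not pass the test across all pairs at a log2 fold change of 0.88 ± 0.34 (SE, adjusted p = 0.0894).

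The Hox genes, counted as a family after their values were seen, held 39 members, of which 25 were not tested, 11 were lower in EBs and 3 did not pass the test. Hoxa2, Hoxa3, Hoxa4, Hoxa5, Hoxb1, Hoxb2, Hoxb3 and Hoxb4 had fewer than 10 reads in every EB library and passed the filter only through Neural libraries, so the direction of the tested members was largely fixed by the filter and the count says nothing of the family. Hoxb1 was at 0.244, 0.0563, 0.0559 and 0.0969 CPM in EBs and 17.1, 22.9, 14.1 and 23.2 CPM in Neural cells. Hoxa2 had no read in any EB library and 6.52, 17.9, 6.37 and 15.7 CPM in Neural cells, at least 95-fold lower in EBs when 3 reads per EB library are taken as the limit. Hoxa3 was at 4.4 to 8.72 CPM, Hoxa4 at 1.77 to 4.46 CPM and Hoxa5 at 5.06 to 15.9 CPM in Neural cells, and each was at no more than 0.112 CPM in EBs. Hoxc13, Hoxd1 and Hoxd13 did not pass the test and were at or below 2 CPM in all 8 libraries. The FA libraries, on a normalization over all 45 libraries, had a summed Hox level of 44.3 to 171 CPM, against 4.59 to 7.36 CPM in EBs and 87.3 to 165 CPM in Neural cells.

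To show the retinoid sequence in question, the RefSeq promoter windows of the pathway (GRCm38.p6, 250 bases before to 50 after the start) were searched on both strands for the direct repeat named DR5, a pair of half-sites of the retinoic acid receptor 5 bases apart. It was found in 32 of 32851 windows (0.0974%) and in 2 of the 11 pathway genes that had a window, Rarb and Cyp26a1. Their 250 bases before the start are given 5′ to 3′ on the gene's strand with the repeat in capitals, for Rarb at chr14:16575477-16575726 (minus strand) and for Cyp26a1 at chr19:37697558-37697807 (plus strand). The repeat lay 53 to 37 bases before the start in Rarb and 32 to 16 bases before it in Cyp26a1.
Rarb: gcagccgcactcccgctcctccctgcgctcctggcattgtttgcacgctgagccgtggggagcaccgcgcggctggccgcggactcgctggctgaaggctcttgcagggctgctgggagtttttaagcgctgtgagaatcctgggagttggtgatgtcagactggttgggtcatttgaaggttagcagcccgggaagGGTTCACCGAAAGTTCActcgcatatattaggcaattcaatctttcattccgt
Cyp26a1: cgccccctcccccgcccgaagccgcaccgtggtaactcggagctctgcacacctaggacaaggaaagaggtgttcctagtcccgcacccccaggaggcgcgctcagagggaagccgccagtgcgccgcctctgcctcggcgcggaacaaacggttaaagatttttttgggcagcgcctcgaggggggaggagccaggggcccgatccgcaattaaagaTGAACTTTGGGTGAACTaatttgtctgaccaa
The repeat stood in the window of a gene that was lower in EBs in all 4 pairs and of one that was not called.

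In the list of cadherins and mesenchymal transition, 5 of 11 genes were higher in EBs and 3 lower. Cdh1, the epithelial cadherin, was at 544, 550.4, 398 and 446 CPM in EBs and 139, 66.3, 162 and 123 CPM in Neural cells, with a log2 fold change of 2.03 ± 0.27 (SE, adjusted p = 0.00209). Cldn7, a tight junction claudin, was at 23.8, 30.6, 27.1 and 38.2 CPM against 1.58, 2.99, 5.52 and 8.8 CPM, and Esrp1, the epithelial splicing regulator, was higher by 2.84. Epcam and Cldn6 were higher by 1.56 and 1.97. Zeb1, a repressor of epithelial genes, was at 1.71, 1.66, 2.07 and 1.65 CPM in EBs and 37.1, 43.2, 26.9 and 35.3 CPM in Neural cells, a change of -4.33 ± 0.19 (SE, adjusted p = 8.56e-05). Zeb2 was at 6.96, 7.18, 2.68 and 3.68 CPM against 66.2, 152, 55.6 and 109 CPM, and Vim, the intermediate filament vimentin, was lower, at -1.85. These are all 8 called genes of the list, and the other mesenchymal members, Snai1, Twist1 and Cdh11, did not pass the test.

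The 10 largest differences in favour of EBs, taken by rule, added more epithelial genes. Enpp2, the secreted lysophospholipase autotaxin, was at 177, 271, 131 and 116 CPM in EBs and 4.05, 1.5, 4.47 and 5.97 CPM in Neural cells, the largest difference at 5.38 ± 0.46 (SE, adjusted p = 5.57e-04). Rab25, a small GTPase of epithelial recycling, was at 14.3, 18.3, 14.3 and 19.8 CPM against 0.549, 0.0623, 0.657 and 0.844 CPM, a change of 5.01 ± 0.42 (SE, adjusted p = 4.93e-04). Ap1m2, the epithelial clathrin adaptor subunit, was at 23.7, 43.5, 53.9 and 69.7 CPM against 0.481, 1.99, 6.96 and 8.74 CPM. Crb3, an apical polarity protein, was at 16.1, 27.2, 21.6 and 31.9 CPM against 1.03, 1.56, 3.35 and 2.77 CPM, and Mal2, an apical transport protein, was higher by 3.59. The hormone receptor genes Calcr and Prlr were higher by 3.72 and 3.63, and Otx2, Nr0b1 and Fgf5 completed the 10. Rab25, Ap1m2, Nr0b1, Calcr, Prlr and Mal2 passed the filter on low counts only with EB libraries counted in, which favoured their direction. On the Neural side the 10 were Hoxa2, Olig3, Hoxb2, Hoxb1, Meox1, Stra8, Sox1, Tmem132c, Crabp1 and Meis2. Of these, all but Sox1, Crabp1 and Meis2 passed the filter on low counts only through Neural libraries. Meox1, a mesodermal homeobox gene, was at 28.4, 29.8, 1.97 and 3.13 CPM in Neural cells, with higher values from 2iL, and at 0.244, 0.141, 0.0559 and 0 CPM in EBs.

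The E-box CACCTG, the element bound by Zeb and Snail factors, was counted in the same RefSeq windows on both strands. It occurred at least once in 6640 of 32851 windows (20.2%) and at least 2 times in 946 (2.88%). Of the 9 epithelial genes named above, a set chosen after their values were seen, 6 had a window, and all 6 (Ap1m2, Crb3, Cldn6, Cldn7, Epcam and Rab25) held at least 2. The 250 bases before the start of Ap1m2 (chr9:21312334-21312583, minus strand) and Rab25 (chr3:88548280-88548529, minus strand) are shown with each E-box in capitals, read as CACCTG or as its reverse complement CAGGTG.
Ap1m2: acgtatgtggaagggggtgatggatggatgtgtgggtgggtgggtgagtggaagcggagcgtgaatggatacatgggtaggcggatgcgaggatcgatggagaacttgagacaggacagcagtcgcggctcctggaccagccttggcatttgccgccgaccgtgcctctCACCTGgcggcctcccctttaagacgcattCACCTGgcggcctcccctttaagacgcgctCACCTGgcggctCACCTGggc
Rab25: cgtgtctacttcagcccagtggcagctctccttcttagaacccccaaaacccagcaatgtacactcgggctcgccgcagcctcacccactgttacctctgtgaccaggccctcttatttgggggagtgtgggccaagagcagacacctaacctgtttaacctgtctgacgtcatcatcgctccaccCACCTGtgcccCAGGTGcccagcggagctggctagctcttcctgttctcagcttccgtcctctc
Ap1m2 carried 4 matches and Rab25 carried 2 within these bases, and a match describes letters, not binding.

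Lipid synthesis genes were lower in EBs throughout the pathway. All 25 genes of cholesterol synthesis and uptake were called lower and 0 higher, against 16.9% of all genes called lower, with a median log2 fold change of -1.02. Hmgcs1, the synthase at the entry of the mevalonate pathway, was at 428, 239, 427 and 332 CPM in EBs and 847, 992, 754 and 793 CPM in Neural cells. Its groups did not overlap and the change was -1.27 ± 0.20 (SE, adjusted p = 0.00417). Dhcr7, a reductase of the final steps, was at 33.8, 17.6, 23.8 and 27.9 CPM against 78.3, 73.2, 72 and 67.9 CPM, a change of -1.53 ± 0.15 (SE, adjusted p = 8.14e-04). Insig1, which retains the sterol sensor, Srebf2, its transcription factor, and Nsdhl, a late enzyme, were lower, at -1.29, -0.85 and -1.57. The smallest differences in the list were those of Idi1 at -0.50 and Stard4 at -0.64. These 2 lost their call when library totals were used or when the block was left out, and 23 of the 25 were called lower in each of those settings. The FA libraries had a summed level of 3931 to 4611 CPM over the 25 genes, beside 1803 to 2871 CPM in EBs and 4479 to 4829 CPM in Neural cells.

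Of 12 fatty acid genes, 11 were lower in EBs and 0 higher, with a median of -0.74. Scd2, a desaturase that makes monounsaturated fatty acids, was at 676, 401, 524 and 528 CPM in EBs and 3187, 2815, 2522 and 2353 CPM in Neural cells, with a log2 fold change of -2.37 ± 0.13 (SE, adjusted p = 1.21e-04). Scd1 was at 153, 89.1, 141 and 147 CPM against 534, 457, 548 and 526 CPM, a change of -1.99 ± 0.12 (SE, adjusted p = 1.77e-04). Fads1 was lower, at -1.47, while Fasn and Acaca, which encode fatty acid synthase and acetyl-CoA carboxylase, differed less, at -0.52 and -0.39. Me1, a source of NADPH, was at 35.6, 36.4, 40.8 and 47.5 CPM against 35.2, 23.5, 39.999 and 50.9 CPM and did not pass the test. Of these 37 genes, 35 are shown in the plot of lipid genes.

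**Figure D2:**
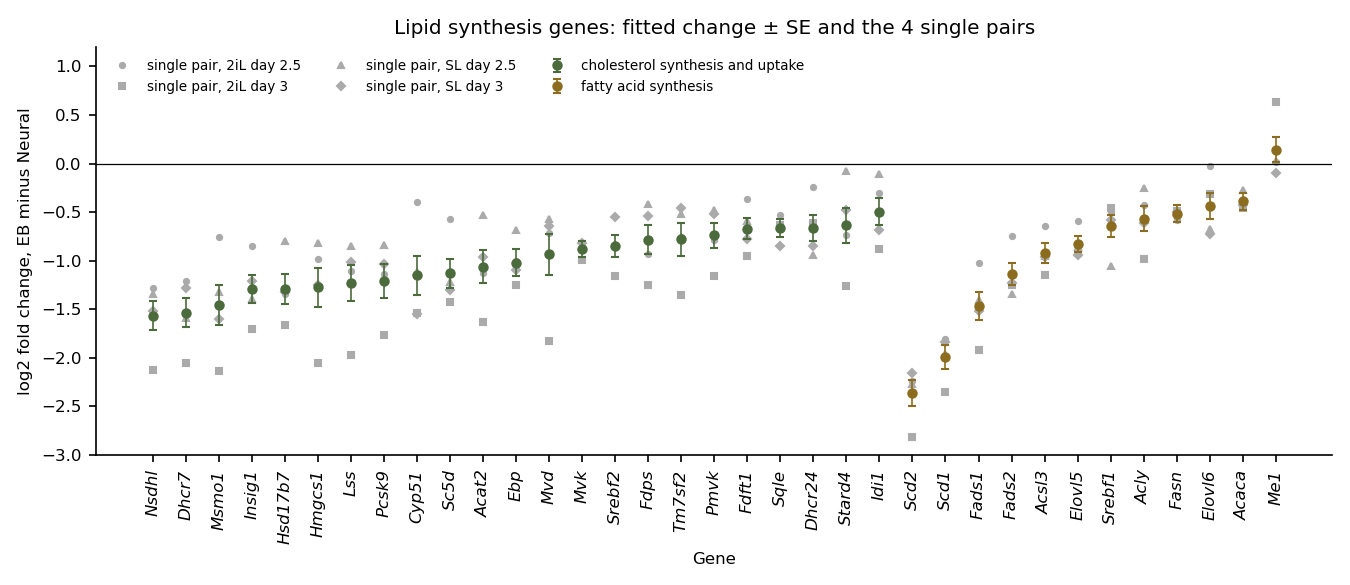
Log2 fold change of EB over Neural for 23 of the 25 cholesterol genes (green) and 12 fatty acid genes (brown), coloured points being the paired fit with its SE and grey symbols the 4 single pairs. Every coloured point except Me1 lies below 0.

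The sterol response element TCACNCCAC, searched in the same way with N as any base, was found in 408 of 32851 windows (1.24%). It was present in 1 of the 17 cholesterol genes that had a window, Hmgcs1, and in 0 of the 9 fatty acid genes. It is shown as the only match in the lipid lists, and the element of Hmgcs1 (chr13:119690101-119690350, plus strand) lay 137 to 129 bases before the start and is in capitals.
Hmgcs1: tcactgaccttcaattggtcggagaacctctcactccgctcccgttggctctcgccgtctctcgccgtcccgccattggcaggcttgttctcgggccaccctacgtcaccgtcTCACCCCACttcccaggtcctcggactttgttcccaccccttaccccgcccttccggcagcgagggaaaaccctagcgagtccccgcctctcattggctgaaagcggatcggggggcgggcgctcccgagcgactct

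Genes of the Nodal and Activin pathway were higher in EBs for 6 of 18 members and lower for 3, a share called of 50% beside 33.2% over all genes. Nodal, the ligand, was at 45, 27.7, 18.4 and 17.9 CPM in EBs and 19.3, 4.67, 13 and 7.05 CPM in Neural cells, a change of 1.38 ± 0.30 (SE, adjusted p = 0.0141), though the ranges overlapped. Its co-receptor Tdgf1 was higher by 1.77, Gdf1, a partner ligand, by 0.83 and Foxh1, the nuclear effector, by 0.66. Smad7, a feedback inhibitor, was at 57.4, 55.6, 52.3 and 49.96 CPM against 13.5, 9.84, 14.6 and 10.4 CPM, a change of 2.17 ± 0.13 (SE, adjusted p = 1.31e-04), and Skil, a further target, was higher by 1.42. The receptor Acvr2a and the effectors Smad2 and Smad3 were lower, at -0.88, -0.48 and -0.94. Lefty1 and Lefty2, inhibitors of Nodal, did not pass the test.

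Primitive streak genes were split, with 2 of 13 higher and 4 lower, a share called of 46.2% beside 33.2% over all genes tested. T, the mesoderm factor brachyury, was at 0.549 to 1.25 CPM over all 8 libraries and the groups overlapped. Eomes, a factor of mesendoderm, was at 12.8, 11.9, 44.9 and 51.7 CPM in EBs and 8.99, 5.73, 11.4 and 10.1 CPM in Neural cells, higher in EBs by 1.49. Mixl1 was higher by 1.96 at levels of no more than 3.75 CPM. Wnt8a, a ligand of the posterior epiblast, was at 6.14, 3.04, 1.57 and 1.31 CPM in EBs and 140.3, 156, 59.8 and 73.6 CPM in Neural cells, a change of -5.25 ± 0.23 (SE, adjusted p = 8.56e-05). Wnt3, Pdgfra and Fgf17 were lower, at -1.59, -2.17 and -1.36, the ranges of Pdgfra and Fgf17 overlapping between groups, and Fgf17 lost its call in 8 alternative settings.

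Other signalling lists were mixed. Of 15 genes of Fgf and ERK feedback, 4 were higher and 4 lower, a share called of 53.3% beside 33.2% over all genes. Fgf4, the epiblast ligand, was at 150.4, 124, 129 and 109 CPM in EBs and 30.7, 11.5, 27.7 and 18.1 CPM in Neural cells, a change of 2.61 ± 0.20 (SE, adjusted p = 3.62e-04), and Spry1, Etv5 and Spry4 were higher by 1.8, 1.39 and 1.11. The receptors Fgfr1, Fgfr2 and Fgfr3 and the inhibitor Spred1 were lower, at -1.0, -0.73, -1.78 and -1.64. Canonical Wnt targets were lower for 8 of 13 and higher for 3. Axin2, the standard Wnt reporter gene, was at 13, 14, 13.4 and 14.8 CPM against 23.7, 34.5, 23.8 and 31.3 CPM, and Ccnd1 and Cdx2 were lower, at -1.08 and -2.44, while Tcf7, Fzd7 and Rnf43 were higher by 1.22, 0.86 and 1.45. Of 19 BMP genes, 2 were higher (Msx1 by 2.05 and Bmp4 by 1.56) and 4 lower, Bmp7 at -1.93 and Smad5 at -0.68 among them, a share called of 31.6% that is near the 33.2% over all genes. Notch genes were lower for 5 of 13, with Lfng at -2.58 and Jag1 at -1.81, and higher for 1, Hes6 at 1.31. Their share called was 46.2%.

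Of 21 hypoxia response genes, 11 were higher in EBs and 2 lower, with a median of 0.48. Ldha, lactate dehydrogenase, was at 1446, 1190.5, 1514 and 1645 CPM in EBs and 791, 671, 809 and 807 CPM in Neural cells, a change of 0.91 ± 0.09 (SE, adjusted p = 8.19e-04), and Bnip3, Pdk1 and Pgk1 were higher by 1.22, 1.04 and 0.58. Slc2a1, a glucose transporter that is in the same list, was lower, at -0.87 and P4ha1 at -1.08. Without the replicate block 6 of the 21 were called higher, and from 2iL alone 4 were. Of 21 genes of serine synthesis and the ATF4 response, 10 were lower and 1 higher, the count lower falling to 5 without the 2iL day 3 pair and 6 without either day 2.5 pair. Aldh1l2, a mitochondrial folate enzyme, Atf5 and Asns were lower, at -2.54, -1.73 and -1.13, while Slc7a3 was higher by 1.3 and Atf4 itself did not pass the test. Of the 14 p53 targets, 4 were lower (28.6%), Cdkn1a at -1.1 among them, a share below the 33.2% called over all genes. Basement membrane genes were lower for 9 of 14 and higher for 2. Lama1, a laminin chain, was at 37.4, 47.4, 128 and 209 CPM in EBs and 110.1, 239, 784 and 1149.5 CPM in Neural cells, and both groups were higher from SL. Col4a1 and Serpinh1 were lower, at -1.23 and -2.46, and Nid2 and Lama5 were higher by 0.65 and 0.54. Without the block, 4 of the 14 were called lower.

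**Figure D3:**
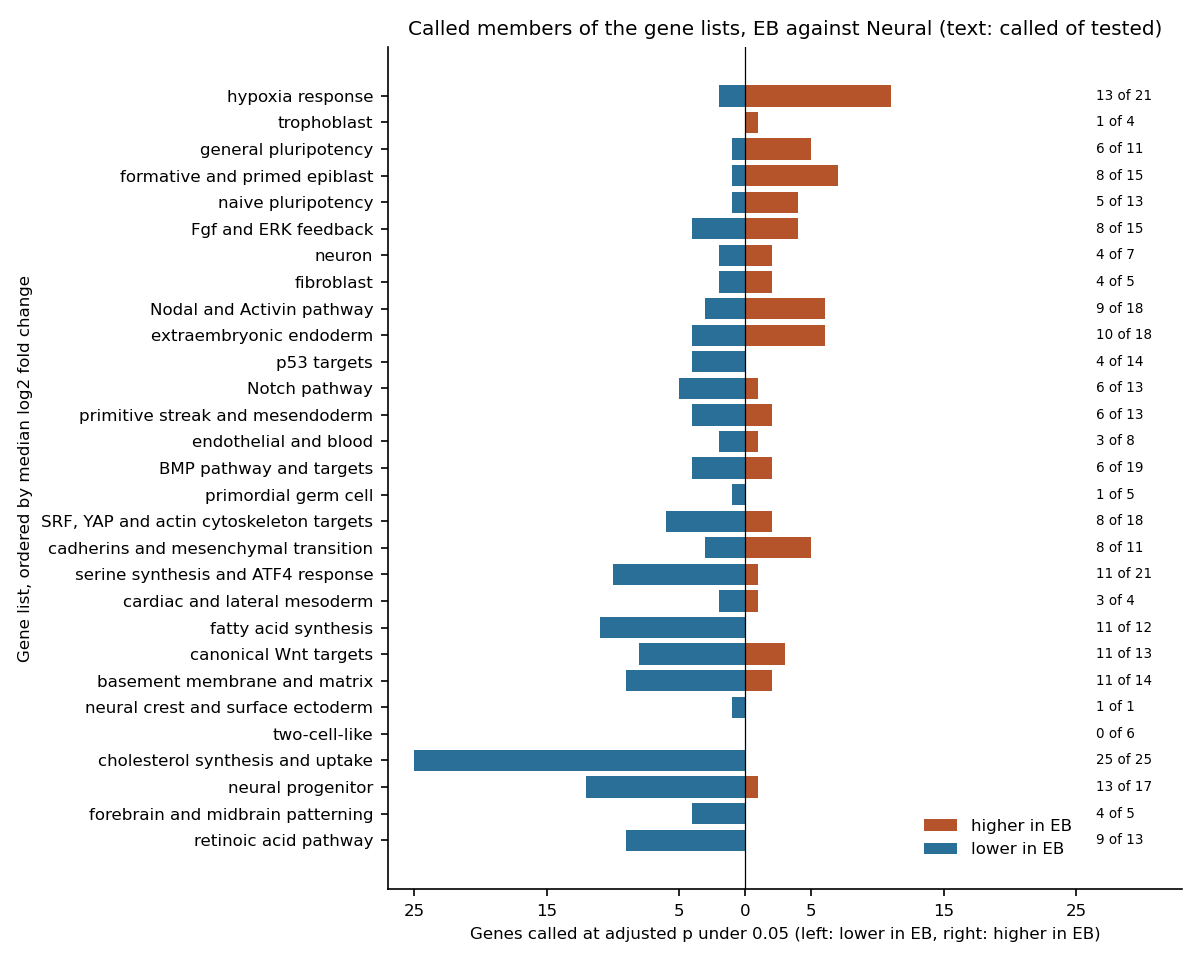
Number of genes called at adjusted p under 0.05 in each of 29 gene lists, to the right where higher in EBs and to the left where lower, lists ordered by median log2 fold change and the number called of the number tested at the right. The cholesterol list has 25 of 25 called, all to the left.

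Markers of other cell types were checked. The extraembryonic endoderm list followed the starting medium, with a summed level of 1238, 1161, 3078 and 3349 CPM in EBs and 982, 1444, 2749 and 3337 CPM in Neural cells. Of its 18 genes, 6 were higher in EBs and 4 lower, and without the block 2 and 1. Afp and Apoa1, secreted products of the visceral endoderm whose ranges overlapped between groups, were higher by 2.56 and 2.3, and Sox17 and Plat were lower, at -1.63 and -3.88. Such cells are known to make basement membrane, and their part in that result was not tested. The cardiac list summed to at most 11.9 CPM and the neural crest and surface ectoderm list to at most 3.5 CPM in any of the 8 libraries. Of the 4 cardiac genes tested, 1 was higher (Myl7) and 2 were lower (Hand1 at -3.66 and Mef2c). Myl7 passed the filter on low counts only through EB libraries. No fold is given for it because every Neural library was at or under the limit of 3 reads. Hand1 passed the filter only through Neural libraries. Dlx3, the 1 crest and ectoderm gene tested, was lower, at -1.01, but lost its call in 11 alternative settings. The blood globin genes Hba-x and Hbb-bh1 were at or near 0. Of the endothelial and blood list, 1 of 8 was higher and 2 lower, Kdr at -2.46, a share called of 37.5% that is near the 33.2% over all genes tested. Counts higher and lower were 1 and 0 of 4 for trophoblast (Krt18 by 1.17), 0 and 1 of 5 for primordial germ cells, 2 and 2 of 5 for fibroblasts and 2 and 6 of 18 for SRF, YAP and actin targets. The shares called of trophoblast and germ cells, 25% and 20%, were below the 33.2% over all genes tested. Those of fibroblasts and of SRF, YAP and actin targets were 80% and 44.4%. In the last list Egr2, a hindbrain factor as well as an immediate early gene, was at 0.183, 0.422, 0.559 and 0.145 CPM in EBs and 0.687, 15.1, 1.9 and 20.3 CPM in Neural cells, and Amotl2 was lower, at -0.89. Xist was at 5.62, 1.46, 1.79 and 1.99 CPM in EBs and 8.24, 3.86, 1.84 and 1.39 CPM in Neural cells and did not pass the test, at a log2 fold change of -0.41 ± 0.32 (SE, adjusted p = 0.355). Its sign turned to 0.24 in the SL pairs alone.

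The question whether the EB and Neural difference depended on the medium of origin was addressed by an interaction term. Of 14276 genes, 276 were called (1.93%), 207 with a more positive difference from 2iL (1.45%) and 69 with a more negative one (0.483%). Without the replicate block 161 were called (20 negative), without a filter on low counts 586 (202 negative), and DESeq2 called 109 negative. Of the 276, 61 were called in the comparison across all pairs, and in 192 the mean difference had opposite signs in the 2 media. The two-cell-like state is a rare ESC state with transcripts of the early embryo. Zscan4c, its defining marker, was at 132, 141, 36 and 17.8 CPM in EBs and 29.1, 41.4, 497 and 346 CPM in Neural cells. From 2iL the EB libraries were higher and from SL the Neural libraries were, with an interaction of 6.0 ± 0.23 (SE, adjusted p = 1.69e-06) on the log2 scale. All 6 two-cell-like genes tested were called in this way. Across all pairs 0 of these 6 were called by edgeR, while the 2iL pairs alone gave 6 higher and the SL pairs alone 7 lower. The 5 genes of smallest p with a mean of at least 5 CPM, Zscan4b, Gm2016, Gm8764, Gm6763 and Gm5580, had interactions of 5.93, 6.02, 5.94, 5.92 and 6.01. Zscan4 genes have near-identical copies, so their counts share reads and the number of such genes is uncertain.

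In the other direction H19, an imprinted non-coding RNA, was at 58.1, 67.1, 39.7 and 72.1 CPM in EBs and 469, 617, 33.8 and 39.8 CPM in Neural cells, with an interaction of -3.66 ± 0.23 (SE, adjusted p = 2.97e-05). The high values were those of the Neural libraries from 2iL. Mir675, which lies within H19, had -4.05, and Ntn1, Sfrp5 and Folr1 had -2.65, -4.21 and -2.43. Among list members, Lhx1, Foxa2 and Eomes had interactions of -3.22, -2.22 and -1.39, and for Lhx1 the EB values from SL (20.5 and 31.2 CPM) were above all others. Hnf4a and Gata6 had -1.9 and -1.53. Cyp26a1, not called across all pairs, had -1.58 ± 0.29 (SE, adjusted p = 0.0316): its mean difference was 0.06 from 2iL and 1.58 from SL. Stra6, Serpinh1 and Stmn2 had -1.37, -1.49 and -1.76. Ap1m2, Cldn6 and Cldn7 were higher in EBs from both media and more so from 2iL, with 1.83, 1.4 and 1.39, and Fbxo15, Lamb1 and Lamc1 had 1.85, 1.24 and 1.01. No gene of the cholesterol, fatty acid, neural progenitor, general pluripotency or formative lists, 80 tested in all, was called by edgeR, and 17 had an unadjusted p under 0.05. Over all 14276 genes tested, 276 were called (1.93%) and 2167 had an unadjusted p under 0.05. In simulated data this test recovered 0% of 2-fold and 22% of 4-fold differences between media. The simulated spread took in the EB and Neural difference, which lowers recovery, but changes were placed only in genes with higher counts, which raises it.

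**Figure D4:**
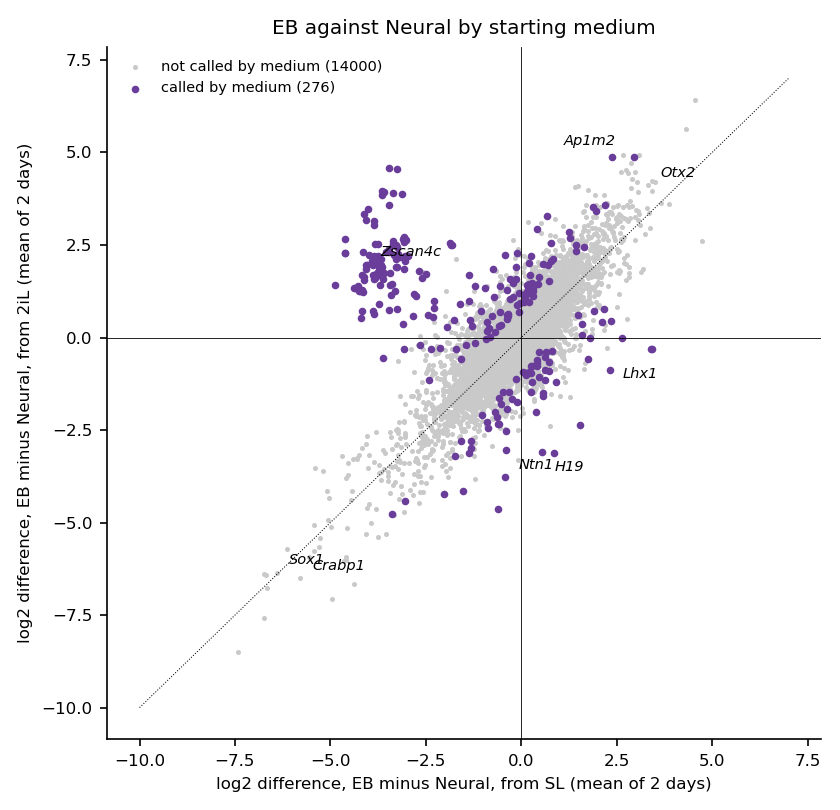
Mean log2 difference of EB minus Neural from 2iL (vertical) against that from SL (horizontal) for the 14276 genes tested, with the 276 genes called for a medium effect in purple and the dotted line marking equal differences. Most genes follow the line, Sox1, Crabp1 and Otx2 among them, and the Zscan4 genes form a group at the upper left.

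Between days 2.5 and 3 no gene was called by edgeR's quasi-likelihood test for a change in the difference, the lowest adjusted p being 0.999. Of 14276 genes, 571 had an unadjusted p under 0.05, a smaller share than the 1 in 20 that chance gives. DESeq2 called 22. Among the genes with the smallest p and a mean of at least 5 CPM were Utf1, Myrf, Rarg, Fam131b and Foxd3 on the positive side and Fgf15, Lrig1, Crabp2 and Wls on the negative. Foxd3 was at 12.8, 0.997, 10.3 and 2.65 CPM in Neural cells and 24, 29, 23.1 and 25 CPM in EBs. For Foxd3 the Neural values of day 3 were below those of day 2.5 from both media, while the EB values lay close together. In simulated data with this design, a 4-fold difference between days was recovered for 13% of the genes that had one and a 2-fold difference for 0%. Here too the simulated spread took in the EB and Neural difference and changes were placed only in genes with higher counts.

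Days 2.5 and 3 were then set against days 1 to 2 in a fit to the 20 EB and Neural libraries of days 1 to 3. Of 14062 genes, 876 were called (6.23%), 304 with a more positive difference at the later days (2.16%) and 572 with a more negative one (4.07%). The difference grew in size for 704 of the 876. Sox1 went from 18.7 CPM at day 1 to 238 CPM at day 3 in Neural cells from 2iL, and from 5.39 to 1.65 CPM in EBs, on the scale of all 45 libraries. Its difference changed from -2.7 at days 1 to 2 to -6.47 at days 2.5 and 3, a shift of -3.77 ± 0.55 (SE, adjusted p = 0.0146). Crabp1 was at 6.0 CPM in Neural cells from 2iL at day 2 and at 1154 CPM at day 3, a shift of -5.16 ± 0.73 (SE, adjusted p = 0.0146). Sox21 ranked first on the negative side, with a shift of -3.86 ± 0.36 (SE, adjusted p = 0.00253): from 2iL it was at 31.1, 3.1 and 39 CPM at days 1, 2 and 3 in Neural cells and at 11.7, 0.876 and 0.599 CPM in EBs. Wnt8a, Gbx2, Meis2, Zeb1, Zeb2 and Pax6 shifted by -4.02, -3.7, -3.53, -2.2, -2.23 and -1.79, and Gli2, Sparc, Mest and Hip1 by -1.38, -1.39, -2.23 and -0.98.

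On the EB side, Pou5f1 was at 497 CPM in EBs and 455 CPM in Neural cells from 2iL at day 2, and at 494 and 68.3 CPM at day 3, a shift of 1.44 ± 0.33 (SE, adjusted p = 0.0296). Nr0b1, Otx2 and Cdh1 shifted by 2.78, 1.6 and 1.37. The genes that rank first on this side, Oxnad1, Tmtc1, Cdc42ep3, Dhx32 and Mllt6, shifted by 0.94, 1.99, 1.47, 0.65 and 0.97. For Fgf8 and Id2 the difference was 2.51 and 1.81 at days 1 to 2 and -0.19 and -0.96 at days 2.5 and 3, shifts of -2.7 and -2.76. Fgf5 did not pass the test of a shift, at 0.29 ± 0.38 (SE, adjusted p = 0.687). These counts depended on having both media and all early days: from 2iL alone 1 gene was called, from SL alone 70, with day 2 as the only early day 0 by edgeR, and without the replicate block 67.

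**Figure D5:**
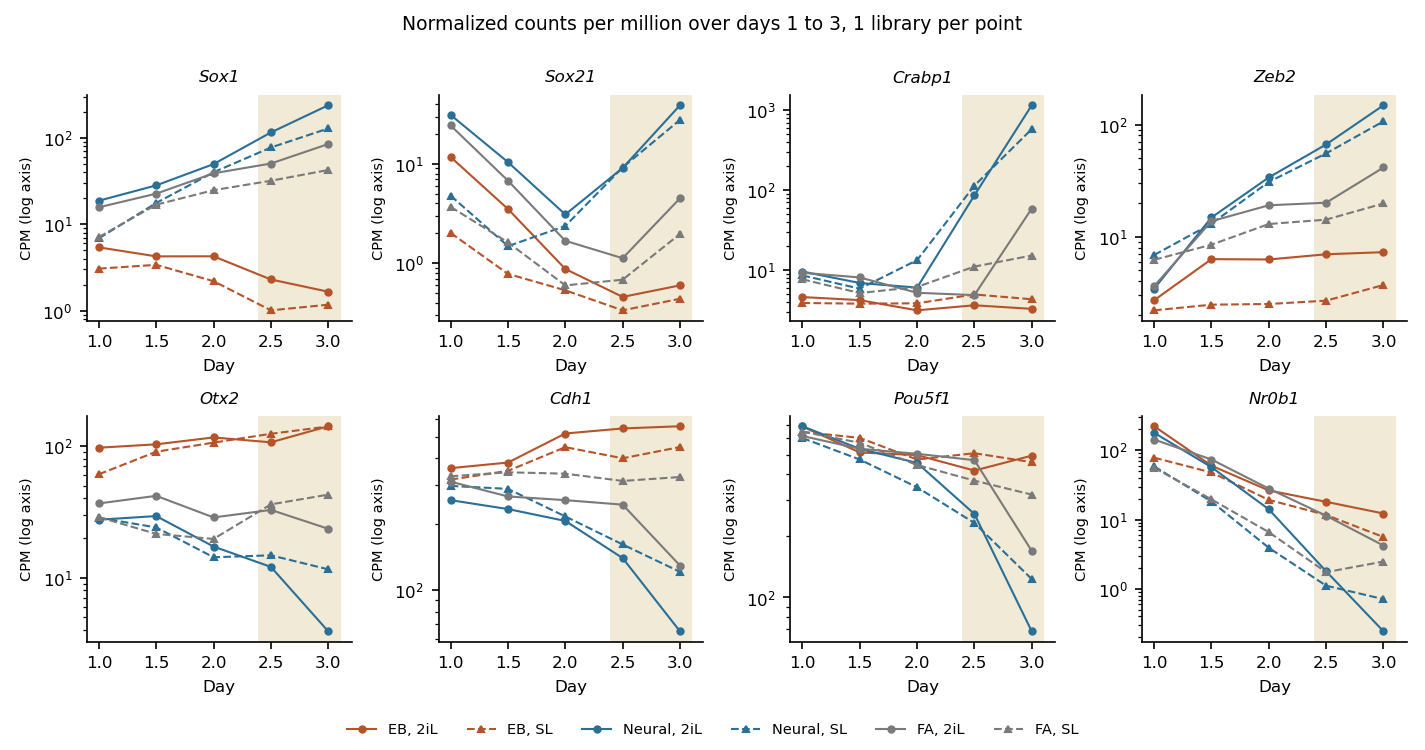
Normalized counts (CPM) on a log axis from day 1 to day 3 for 8 genes in EB (orange), Neural (blue) and FA (grey) libraries from 2iL (solid, circles) and SL (dashed, triangles), 1 library per point, with days 2.5 and 3 shaded. At days 2.5 and 3 Sox1, Zeb2 and Crabp1 are higher in Neural cells than in EBs, and Pou5f1 and Nr0b1 are lower.

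The FA libraries of days 2.5 and 3 are given beside both groups on the scale of all 45 libraries. Sox1 was at 31.8 to 84.6 CPM in FA, above EBs at 1.01 to 2.29 CPM and overlapping Neural cells at 77.1 to 238 CPM. Otx2 was at 23.5 to 42.7 CPM in FA, between the Neural range of 3.91 to 14.8 CPM and the EB range of 107 to 141 CPM. Smad7 was at 66.2 to 95.6 CPM in FA, above 50.3 to 57.4 CPM in EBs. Enpp2 and Rab25 were at 0.921 to 15.5 and 0.242 to 1.14 CPM in FA, against Neural ranges of 1.47 to 5.87 and 0.0611 to 0.83 CPM. Scd2 was at 1823 to 3767 CPM in FA and 2316 to 3202 CPM in Neural cells, both above 406 to 677 CPM in EBs.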

How the data were processed

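RNA-seq counts of 8 libraries (4 EB, 4 Neural) were analysed out of 45 libraries, and the EB and Neural libraries of days 1 to 2 entered the comparison over time. The counts were deposited by the authors as raw reads per gene, 1 file per library. Per the study's methods, reads were trimmed with TrimGalore, aligned with TopHat2 to mouse GRCm38 and counted by strand with featureCounts; versions are not given in the sources used here. EpiSC (FA) libraries were used for levels beside both groups and in 1 alternative. Rows without a gene symbol (435 tRNA rows) held at most 0.00106% of reads. Of 35372 genes, 34599 matched a position in the GENCODE M21 annotation.

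Genes were filtered with filterByExpr, normalized with TMM and tested with the quasi-likelihood test of edgeR 4.0.16 in R 4.3.3, with the medium and day pair as a block, and p-values were adjusted by Benjamini-Hochberg over all genes tested. Interaction terms tested whether the difference depended on medium, day or period. Alternatives were DESeq2 1.42.0, other scalings and filters, thinning, subsets of pairs and leaving out each pair. Replicates 1 to 4 are 2iL day 2.5, 2iL day 3, SL day 2.5 and SL day 3 in both groups, and they were treated as paired because deviations from the group means correlated within every pair (0.348, 0.121, 0.153 and 0.325 over 14276 genes). Between libraries of different pairs the correlations ran from -0.370 to 0.177. The SL day 2.5 EB library correlated more with the SL day 3 Neural library (0.177) than with its own pair. With 4 pairs, an exact two-sided sign-flip test of a single value cannot go below p = 0.125. Tables were joined with Python 3.11.15 and pandas 2.3.3. Depth ran from 15664959 to 33951812 reads, and zeros were bounded at 3 counts per library, which covers counting error only.

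The scripts were tested on simulated counts: in the EB against Neural comparison on 14081 genes, 26% of 2-fold and 82% of 4-fold changes were recovered. The simulated spread was estimated with the pair but without the condition in the model. It therefore took in the EB and Neural difference itself, so recovery here and in the interaction tests is likely understated.

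Genes named were the members of 29 lists (426 genes), the 10 genes with the largest called difference in each direction with the same sign in all 4 pairs and a mean of at least 5 CPM, the 5 genes of smallest p in each direction of each interaction, Xist, and genes whose sequence is shown. A few genes that the rule named are not reported here. Members and lists were chosen with earlier results of these data known. Hox genes, the epithelial set and Gm10800, Rn7s1 and Rn7s2 were chosen after their values were seen.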

Additional observations from a re-analysis of the deposited data

Results flagged for a closer look

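Of 366 sets of 4 libraries of a group tested for a library far from the other 3 by Dixon's test, 11 were singled out, where chance gives about 1 in 20. They were Aldh1l2 in the 2iL Neural day 3 library (13 CPM), Fgfr2 in the 2iL EB day 2.5 library (36.7 CPM), Folr1 in the 2iL Neural day 2.5 library (51.1 CPM), Rn7s1 in the SL Neural day 3 library (20389 CPM), Ldha in the 2iL Neural day 3 library (671 CPM), Pdk1 in the 2iL EB day 2.5 library (236 CPM), Scd1 in the 2iL EB day 3 library (89.1 CPM), Spry1 in the SL Neural day 2.5 library (12.2 CPM), Tdgf1 in the 2iL EB day 2.5 library (245 CPM), Zeb1 in the SL EB day 2.5 library (2.07 CPM) and Zic1 in the SL EB day 3 library (0.291 CPM).

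An interaction test called the EB minus Neural difference unlike between the starting media for the following genes. Values are the log2 difference from 2iL minus that from SL. A medium effect cannot be told apart here from a difference between cultures. More positive from 2iL were Zscan4b (5.93), Zscan4c (6.0), Gm2016 (6.02), Gm8764 (5.94), Gm6763 (5.92), Gm5580 (6.01), Cldn6 (1.40), Cldn7 (1.39), Ap1m2 (1.83), Lamb1 (1.24), Lamc1 (1.01) and Fbxo15 (1.85). More negative from 2iL were H19 (-3.66), Mir675 (-4.05), Ntn1 (-2.65), Sfrp5 (-4.21), Folr1 (-2.43), Eomes (-1.39), Lhx1 (-3.22), Foxa2 (-2.22), Hnf4a (-1.90), Gata6 (-1.53), Stra6 (-1.37), Cyp26a1 (-1.58), Serpinh1 (-1.49) and Stmn2 (-1.76).

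The same difference depended on the period, given as the log2 difference at days 2.5 and 3 minus that at days 1 to 2. More positive at the later days were Oxnad1 (0.94), Tmtc1 (1.99), Cdc42ep3 (1.47), Dhx32 (0.65), Mllt6 (0.97), Otx2 (1.60), Nr0b1 (2.78), Cdh1 (1.37) and Pou5f1 (1.44). More negative were Sox21 (-3.86), Gli2 (-1.38), Sparc (-1.39), Mest (-2.23), Hip1 (-0.98), Sox1 (-3.77), Crabp1 (-5.16), Wnt8a (-4.02), Pax6 (-1.79), Zeb1 (-2.20), Zeb2 (-2.23), Meis2 (-3.53), Gbx2 (-3.70), Fgf8 (-2.70) and Id2 (-2.76).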

How the results depend on the processing

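For named genes in the EB against Neural comparison, 2219 of the alternative values kept their direction and side of the threshold, 162 kept the direction and lost the call, 6 gained it and 9 reversed. Reversed log2 fold changes in the SL pairs alone were 0.24 for Xist, 0.55 for H19 and -0.036 for Me1. Leaving out 1 pair, Me1 ranged from -0.0196 (without 2iL day 3) to 0.196, and it was -0.011 in the day 2.5 pairs alone. Zscan4c was at 1.96 in the 2iL pairs alone and 0.11 with EpiSC libraries in the fit, and leaving out 1 pair it ranged from -2.56 to 0.49, with 0.47 and 0.49 without the SL day 2.5 and SL day 3 pairs. The day 2.5 pairs alone called 1175 genes (526 higher and 649 lower) with 115 list members, and the day 3 pairs alone 1691 (746 and 945) with 135, both with fewer libraries. Leaving out 1 pair gave 2934 to 4033 genes, 1438 to 1891 higher and 1496 to 2142 lower, the fewest without the 2iL day 3 pair. The additive medium and day fit called 5597 genes and the fit with EpiSC libraries 6115. Library totals gave 3038 higher and 1718 lower. Without the replicate block the counts were 1985 higher and 2011 lower for EB against Neural, 161 for the medium effect (20 negative) and 67 for the period effect (22 positive and 45 negative). For the medium effect, DESeq2 called 109 negative genes, and no filter on low counts gave 586 (384 positive and 202 negative). For the day effect, DESeq2 called 22 (8 positive and 14 negative). For the period effect, DESeq2 called 1519 (604 and 915), the 2iL libraries alone 1 (1 and 0), the SL libraries alone 70 (1 and 69) and day 2 in place of days 1 to 2 called 0 (0 and 0) by edgeR. The period shift of Fgf5 reversed, to -0.15, with the setting day 2 in place of days 1 to 2. The cause of these shifts was not tested. Of the named genes, 11 medium values and 85 period values lost their call in an alternative, and 7 day values gained one. With 4 pairs, small differences were recovered poorly in simulated data, but the spread there took in the EB and Neural difference. Changes there were placed only in genes with higher counts.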
